A study of Homo sapiens with 9 samples.

Results

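The effect of UHRF1 knockdown was examined in RKO cells that had all received the histone deacetylase inhibitor trichostatin A (TSA). RKO is a human colorectal cancer cell line. Of the 9 expression arrays of the study, the 4 used for this comparison were chosen by their sample titles: 2 replicates of a control siRNA with TSA (siCONT + TSA), 1 array of a first UHRF1 siRNA with TSA (siUHRF1-1 + TSA) and 1 array of a second, different UHRF1 siRNA with TSA (siUHRF1-2 + TSA). The cells were incubated with siRNA for 72 h and then given 300 nM TSA for 24 h, so RNA was collected at 96 h. The 4 arrays of the same siRNAs with the ethanol vehicle in place of TSA (siCONT and siUHRF1) entered the same statistical fit and were used for the comparison without TSA. The remaining array, of cells given a DNA methyltransferase inhibitor, was not used here. All 4 groups are transient transfections of 1 cell line, and no source used here says whether the replicates came from separate cultures, so the p-values measure the spread between these arrays only.

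UHRF1 is a nuclear protein that recognizes hemimethylated CG sites behind the replication fork and brings the maintenance methyltransferase DNMT1 to them. When UHRF1 is lost, methylation is diluted as the DNA replicates. TSA blocks class I and class II histone deacetylases and raises histone acetylation, and methylated promoters in cancer cells are often kept silent by both layers. Because every array of this comparison carried TSA, the comparison asks how transcript levels differ with UHRF1 knockdown while deacetylases are inhibited.

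CG dinucleotides are the sites on which UHRF1 and DNMT1 act, so stretches of promoter are shown for genes described later. The window given for each gene is the stretch of 30 bases with the most CG in the 250 bases upstream of the RefSeq transcription start (assembly GRCh38.p14), written 5′ to 3′ on the gene's strand with each CG in capitals. The first lines are genes that were below background in siCONT + TSA and bright in siUHRF1 + TSA, H19 is an imprinted gene that rose, and UHRF1 and CA9 are genes that fell.
XAGE1A (chrX:52495837-52495866, plus strand): CGCGgCGgagctgtgagcCGgCGactCGgg
GAGE12F (chrX:49560795-49560824, plus strand): CGCGcatgctccctgggctccCGcctcagt
SPANXB1 (chrX:141002383-141002412, plus strand): CGgCGgcagatCGgtttgggatgcatcttc
SPANXA1 (chrX:141584959-141584988, minus strand): CGgCGgcagatCGgtttgggatgcatcttc
SOHLH1 (chr9:135699482-135699511, minus strand): CGgaaggggcCGtgCGCGtggggtCGctcc
TKTL1 (chrX:154295690-154295719, plus strand): CGgagggagCGgcCGgCGgagggagCGgca
H19 (chr11:2001315-2001344, minus strand): CGcatgctccagagggaatCGtttcccaca
UHRF1 (chr19:4909435-4909464, plus strand): CGccccCGgcaCGgcctcctgCGgcccCGc
CA9 (chr9:35673898-35673927, plus strand): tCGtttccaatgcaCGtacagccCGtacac
The SPANXB1 and SPANXA1 windows are the same letters, and the genes are near-identical members of a sperm protein family. Over the whole 250 bases, XAGE1A held 14 CG, which 44.7% of the 27305 promoters in the table matched or exceeded. SOHLH1 held 19 (34.3%), TKTL1 13 (46.4%), GAGE12F 8 (55.8%), H19 4 (69.9%) and CA9 5 (65.0%), while UHRF1 held 28 (15.5%). The median over all promoters was 11, so the genes that went from below to above background were not all CG-rich by this count. A comparison of whole gene groups was not made, because the promoter table covered 69.4% of the genes that appeared and 77.6% of all genes tested. CTAG1A, CTAG2, IGF2 and TIMP2 had no entry in it.

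The targeted gene was checked first. Values are log2 signals relative to each array's 75th percentile, so that 0 marks that percentile, and calls are Benjamini-Hochberg adjusted p below 0.05 from limma. UHRF1, read by a probe at chr19:4962065-4962124 (hg19), stood at 2.87 and 2.86 on the siCONT + TSA arrays and at -0.34 and -0.62 with siUHRF1-1 and siUHRF1-2. The groups were far apart, and siUHRF1-2 gave the lower level. The fall was 10.2-fold (log2 fold change -3.35, standard error 0.14, adjusted p = 0.000132), the largest of any gene above background on all 4 TSA arrays. A second, dimmer UHRF1 probe gave a smaller fall (log2 fold change -2.86, adjusted p = 0.000382). ACTB (log2 fold change -0.11, adjusted p = 0.747) and GAPDH (-0.11, adjusted p = 0.636), 2 housekeeping genes, were not called. In RNA from whole cultures, a change in the make-up of the cells and a change in RNA per cell cannot be told apart.

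UHRF1 was 1 of 2 called genes among 24 tested members of a list of UHRF1 partners and DNA methylation genes. The other was TET1, a dioxygenase that oxidizes methylcytosine. TET1 read -6.36 and -6.26 in siCONT + TSA, where it was not well above background, and -2.49 and -2.14 in siUHRF1 + TSA, where it was. By the nominal lower bound described below, its level was at least 3.71-fold higher with siUHRF1 (adjusted p = 0.000541), although normexp background correction ended the call. DNMT1, the methyltransferase that UHRF1 recruits, had a log2 fold change of -0.27 (adjusted p = 0.18), and this value, like those of the other uncalled partners, was singled out after the values were seen. The de novo methyltransferases DNMT3A (-0.14) and DNMT3B (0.20), the paralogue UHRF2 (0.07) and the deubiquitinase USP7 (0.01) were not called. The other tested DNMT3A probes had log2 fold changes of 0.14 and 0.34 and were not called either. The list's median was -0.0031, beside 0.0014 over all 13929 genes tested.

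Genes that rose outnumbered genes that fell. Of the 13929 genes tested, each represented by its brightest probe, 477 were called higher (3.42%) and 87 lower (0.625%) in siUHRF1 + TSA than in siCONT + TSA. They fell into groups by detection. Among those called higher, 217 were well above background on all 4 TSA arrays, 235 were below background with both replicates of siCONT + TSA and detected with both UHRF1 siRNAs, and the others had mixed patterns of detection. Among those called lower, 83 were above background on all 4 arrays and 4 went from above to below it. Probes of 1 gene often differed in their calls. Of 179 genes with several tested probes and a call, 38 had every probe called, and 0 genes had calls in opposite directions. The gene counts leave out 88 genes that were called by a dimmer probe and not by the brightest. The share of tested genes with a log2 fold change above 0 was 50.3%, a share that the centring of each array largely sets, and it was 54.2% with scaling on the spike-in probes. Over probes, 839 of 23730 were called and 83.8% of these were higher (646 of 685 with scaling on the spike-in probes). The probe count was 92 after normexp background correction, and it was 506 without siCONT replicate 1, 497 without siCONT replicate 2, 453 without siCONT + TSA replicate 1, 477 without siCONT + TSA replicate 2 and 543 without siUHRF1-1 + TSA.

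Rises among genes measurable in both groups were larger than falls. The 217 rises had a median log2 fold change of 1.10 (2.14-fold), with 121 over 2-fold and 38 over 4-fold. VCX2, a member of a germ cell protein family encoded on chromosome X, led them. Its level was -1.58 and -1.77 in siCONT + TSA and 2.68 and 3.25 in siUHRF1 + TSA, a difference of 4.64 (standard error 0.26, adjusted p = 0.000402). TENM2, a teneurin that neurons carry on their surface, read -3.28 and -2.93 against 1.04 and 0.76 (log2 fold change 4.0, adjusted p = 0.000903). For both genes the siUHRF1 arrays lay well above the siCONT arrays, with VCX2 higher under siUHRF1-2 and TENM2 higher under siUHRF1-1. PSTPIP1, a cytoskeletal adaptor of blood cells, went from -2.74 and -3.02 to 0.43 and 0.64 (3.42, adjusted p = 0.00762), and its call was lost without siCONT + TSA replicate 2 or either siUHRF1 + TSA array.

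Further rises of this kind included 3 noncoding RNAs. H19, the imprinted RNA of the chromosome 11 cluster that also holds IGF2, read -2.77 and -3.00 in siCONT + TSA and 0.08 and 0.32 in siUHRF1 + TSA (log2 fold change 3.08, adjusted p = 0.000155). PCAT19 read -1.18 and -1.14 against 1.71 and 1.76 (2.90, adjusted p = 0.000382), with almost no spread in either group. LINC00958 read -2.56 and -2.75 against 0.11 and 0.16 (2.79, adjusted p = 0.000639). In each case the groups were separated by many times the distance between arrays of the same group. IL18, a cytokine of the interleukin-1 family, went from -1.91 and -1.86 to 1.33 with siUHRF1-1 and 0.53 with siUHRF1-2 (2.81, adjusted p = 0.0078). The others of the 12 largest rises were ADAD2 (2.91), a testis protein with an adenosine deaminase domain, VCY (2.86), a near copy of the VCX genes whose probe may share their signal, IFI27 (2.76), an interferon-induced mitochondrial protein, PNMA5 (2.70) and the zinc finger factor GLIS1 (2.59). The PNMA5 call held in 14 of 20 alternative settings of the limma fit and was lost without any single TSA array. That of VCY was lost without siCONT + TSA replicate 2 or siUHRF1-2 + TSA. Normexp background correction ended the calls of PNMA5, IFI27 and GLIS1.

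Falls were shallow apart from UHRF1. The 83 genes had a median log2 fold change of -0.65 (1.57-fold), 6 fell over 2-fold, and UHRF1 was the 1 that fell over 4-fold. ANGPTL4, a secreted inhibitor of lipoprotein lipase, stood at 1.17 and 1.19 in siCONT + TSA and at 0.00 and -0.06 in siUHRF1 + TSA (log2 fold change -1.20, adjusted p = 0.00273). CA9, the hypoxia-induced carbonic anhydrase, stood at -0.26 and -0.35 against -1.30 and -1.38 (-1.04, adjusted p = 0.0057). For both genes, arrays of the same group lay within 0.1 of each other and the groups did not overlap. CFL2, a muscle-type cofilin that severs actin filaments, had a log2 fold change of -1.27 (adjusted p = 0.0111). RORA, a nuclear receptor of the circadian clock, fell by 0.95, the guanylate-binding protein GBP3 by 0.94, the DNA polymerase of end joining POLQ by 0.91, and ZDHHC2, a palmitoyltransferase, by 0.91. The calls of CA9 and RORA were lost without siCONT + TSA replicate 1, that of CFL2 without either siCONT + TSA replicate, and that of POLQ in 10 of 20 alternative settings of the limma fit. The call of GBP3 held in 10 of 20 settings and was lost without any single TSA array, and that of ZDHHC2 held in 12 of 20 and was lost without either siCONT + TSA replicate or siUHRF1-2 + TSA.

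**Figure D1:**
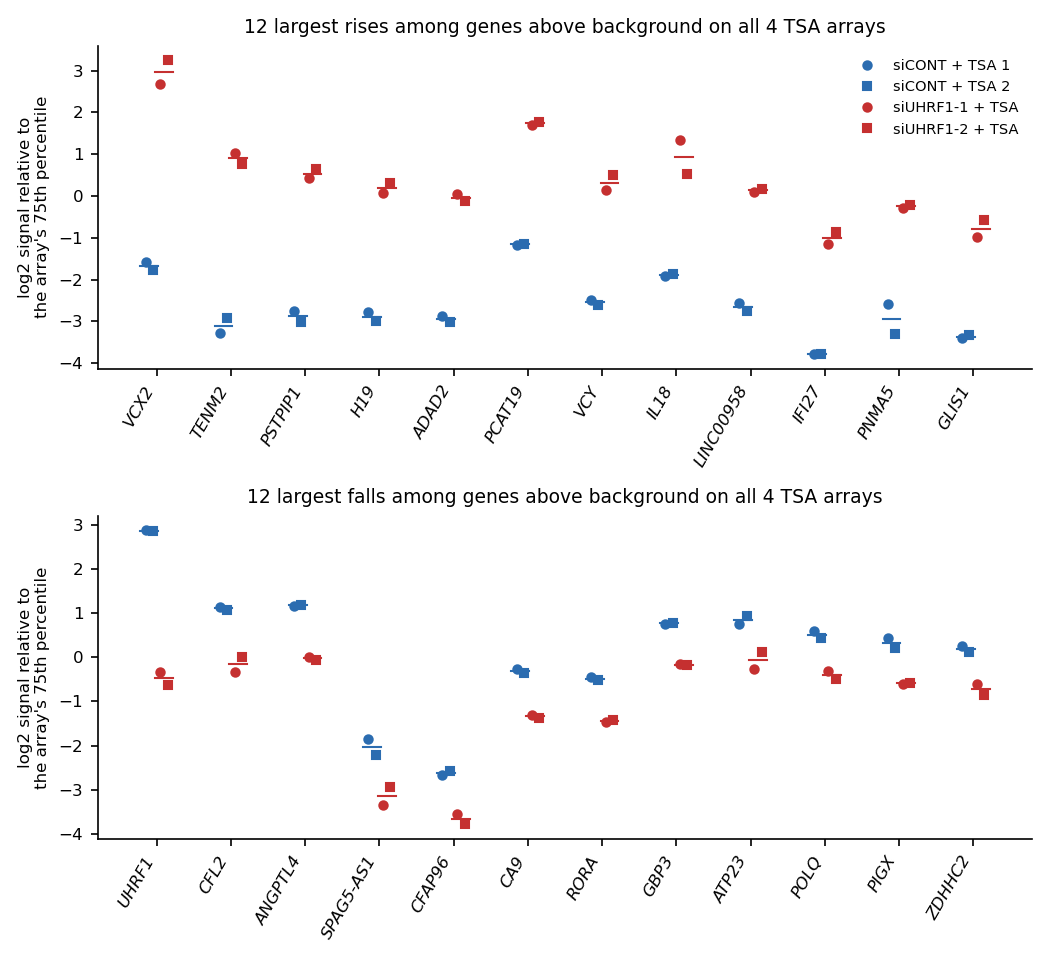
Log2 signal relative to the array's 75th percentile (vertical axis) on each of the 4 TSA arrays for the 12 largest rises (upper panel) and the 12 largest falls (lower panel) among called genes above background on all 4 arrays; points are arrays, short bars are group means of 2 arrays. The rises span 2.59 (GLIS1) to 4.64 (VCX2), and of the falls only UHRF1 (-3.35) exceeds 2 on the log2 scale.

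A larger group of genes was not measurable with the control siRNA. For these 235 genes the fold change is given as a nominal lower bound ("at least"). It was computed against the lowest signal called above background on each siCONT + TSA array, or the probe's own signal where that was higher. That lowest signal is not a strict detection limit. HCLS1 read -4.15 and -3.96 in siCONT + TSA, no lower than it, and was still not above background. Normexp background correction gave 16 such genes. The bound exceeded 2-fold for 160 genes, 4-fold for 79 and 10-fold for 27. Dim spots carry a surrogate value, so the spread and the adjusted p of these genes rest in part on filled-in values. GAGE12F, of the GAGE family of cancer-testis antigens, showed the highest bound. It was not well above background in siCONT + TSA (-4.29 and -6.21) and reached 4.05 and 3.76 in siUHRF1 + TSA, at least 276-fold higher (adjusted p = 0.000682). IGF2, a fetal growth factor and imprinted neighbour of H19, went from -4.34 and -4.30 to 2.44 and 2.55, at least 104-fold higher (adjusted p = 0.000573). The siUHRF1 arrays of both genes differed by less than 0.3, and the groups were separated by more than 6 on this scale. A second IGF2 probe was below background on all 4 arrays.

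Germline genes filled most of the top of that order. SPANXB1 read 3.46 and 2.69 in siUHRF1 + TSA and was at least 154-fold higher. SOHLH1, a transcription factor of early germ cells, read 1.84 and 1.87 and was at least 66.8-fold higher (adjusted p = 0.000128). CTAG1A, which encodes the antigen NY-ESO-1, reached at least 162-fold, XAGE1A at least 117-fold, CTAG2 at least 44.7-fold, SPANXA1 at least 23.2-fold and TKTL1, a transketolase-like gene of the testis, at least 19.4-fold. Members of the GAGE, CTAG, SPANX and XAGE families are near-identical in sequence, so their probes may read several copies. Outside the germline, TIMP2, an inhibitor of matrix metalloproteinases, went from -6.47 and -6.36 to 0.54 and 0.99, at least 31.4-fold higher (adjusted p = 9.88e-05). HCLS1, an actin regulator of blood cells, was at least 17.6-fold higher and ICAM2, an adhesion molecule of endothelium and leukocytes, at least 17.1-fold higher. These 12 genes were called higher under every one of the 19 alternative settings of the limma fit that could give them a value. They sit far above the bulk of the group, whose median bound was 2.93-fold, and all 235 passed the filter only through the siUHRF1 arrays or through the arrays without TSA, so their number is a description.

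**Figure D2:**
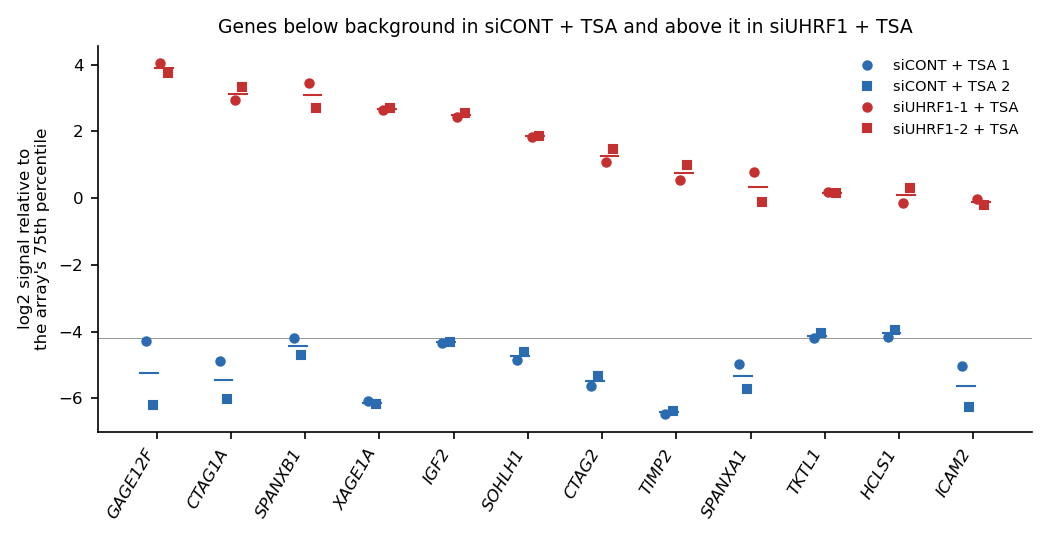
Log2 signal relative to the array's 75th percentile (vertical axis) for the 12 genes with the highest lower bound among those below background in siCONT + TSA; points are arrays, short bars are group means of 2 arrays, and the grey line is the lowest signal called above background on the siCONT + TSA arrays. All siUHRF1 + TSA points lie above -0.2 and all siCONT + TSA points lie below -3.9.

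Genes that went the other way, from above to below background, numbered 4. LINC00968, a long noncoding RNA of chromosome 8, read -2.85 and -2.18 in siCONT + TSA and -6.39 on both siUHRF1 + TSA arrays, at least 3.39-fold lower (adjusted p = 0.000382). DUSP10, a phosphatase of stress kinases, was at least 1.90-fold lower (adjusted p = 0.0347), the inositol phosphate kinase IPMK at least 1.86-fold lower (adjusted p = 0.00762) and the translational regulator CPEB3 at least 1.78-fold lower (adjusted p = 0.0493). Normexp background correction ended all 4 calls. That of CPEB3 held in 7 of 19 alternatives and that of DUSP10 in 9 of 19, and both were lost when any single TSA array was left out, while that of IPMK was lost without siCONT + TSA replicate 2.

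Cancer-testis families formed the list with the most calls. Of 74 names on the multi-copy list, 55 were on the array, 35 were tested and 28 were called higher, with none lower. For this and the lists below, the shares over all genes tested were 3.42% called higher and 0.625% called lower. The median log2 fold change over the 35 was 3.92, all 35 values were above 0, and 26 of the 28 were below background in siCONT + TSA, so most entered the test through their rise. Only 5 members were above background on all 4 arrays, with a median of 1.05, and 2 of these were called (VCX2 and VCY). MAGEA9, one of the MAGE antigens, read -6.52 and -6.40 in siCONT + TSA against -0.60 on both siUHRF1 + TSA arrays, at least 12.2-fold higher (adjusted p = 2.23e-05). PAGE1 read -6.31 and -6.21 against -1.85 and -1.79, at least 5.24-fold higher (adjusted p = 2.23e-05). Both genes gave almost equal signals with the 2 UHRF1 siRNAs. Their adjusted p-values rest in part on signals below background in siCONT + TSA. Normexp background correction left 9 members called.

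Single-copy germline genes were less uniform. Of 75 genes, 26 were tested and 9 were called higher, 8 of them from below background, beside 3.42% of all genes tested. GTSF1, a piRNA pathway factor, read -5.77 and -5.92 against -1.36 and -1.26, at least 7.47-fold higher (adjusted p = 0.00472), and NLRP4, an oocyte and testis protein, was at least 5.72-fold higher (adjusted p = 0.000859). The 15 members above background on all 4 arrays had a median log2 fold change of 0.04, and TEX19, a repressor of transposable elements, was the 1 called among them (1.57, adjusted p = 0.044; named after its value was seen). The remaining 49 genes were not above background on both arrays of any of the 4 groups, or were not measured by a named probe. Normexp background correction left 2 members called.

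The chromosome of the called genes followed the germline lists in part. On chromosome X, 55 of 478 tested genes (11.5%) were called higher, beside 3.42% of all genes tested, and 1 was called lower. Of the 55, 28 belonged to the germline lists. Outside those lists the share was 27 of 443 (6.09%). Among X-linked genes above background on all 4 arrays, 6 of 402 (1.49%) were called higher, beside 1.68% of all genes so measured.

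Imprinted genes as a list did not move with IGF2 and H19. Of 21 tested members these 2 were called, the list's median was 0.12, and the other 19 were not called. Among 17 genes that the study names as silenced in colorectal cancer, 8 were tested and 3 were called higher, and the list was chosen by the study with these cells in view. Besides IGF2 they were DKK1, a secreted Wnt antagonist, and RUNX3, a tumour suppressor of the gut. DKK1 read -1.46 and -1.63 in siCONT + TSA, 1.505 with siUHRF1-1 and 0.15 with siUHRF1-2 (log2 fold change 2.37, adjusted p = 0.0403), so it was above the controls with both siRNAs but by unequal amounts, and the call held in 8 of 20 alternatives. RUNX3 read -6.00 and -6.27 against -3.41 and -3.52, at least 1.68-fold higher (adjusted p = 0.0335). Normexp background correction turned the RUNX3 value to -0.16, its call held in 9 of 19 alternatives, and a second RUNX3 probe was below background on all 4 arrays.

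The remaining genes of that list gave no call by their brightest probe. SOCS1, an inhibitor of cytokine signalling, had a log2 fold change of 1.09 (adjusted p = 0.056), the cell cycle inhibitor gene CDKN2A 0.96 (adjusted p = 0.0915) and the transcription factor GATA4 0.06 (adjusted p = 0.906). The 2 probes for CRABP1, a retinoic acid binding protein, disagreed. The brighter had a log2 fold change of 0.37 (adjusted p = 0.769), whereas the dimmer went from below background at -6.35 and -6.26 to above it at -2.48 and -2.59 (adjusted p = 0.0057). SFRP1, SFRP2, SFRP5, NEUROG1 and CACNA1G were below background on all 4 TSA arrays. UCHL1 and GATA5 were above background on 1 siUHRF1 + TSA array, and TIMP3 on 1 siCONT + TSA array.

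Genes of lipid synthesis, glycolysis and DNA replication leaned lower with few calls. Over all genes tested, 0.625% were called lower and 3.42% higher. Of 33 tested genes of cholesterol and fatty acid synthesis, 28 had a log2 fold change below 0 and the median was -0.28, while 3 were called lower. CYP51A1, a sterol demethylase, read 1.86 and 1.83 in siCONT + TSA against 1.28 and 1.23 (-0.59, adjusted p = 0.0194), and HMGCS1, the synthase at the entry of the pathway, read 0.53 and 0.54 against -0.10 and -0.30 (-0.73, adjusted p = 0.0493). In both genes the siUHRF1 arrays lay below the siCONT arrays without overlap, as they did for 22 members of the list and for 27.4% of all genes tested. The lowest value belonged to the sterol sensor INSIG1 (-1.51, adjusted p = 0.081), which was not called and was singled out after the values were seen. Scaling on the spike-in probes or normexp background correction left 0 members called lower, and leaving out single arrays gave 0 to 6.

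In the list of glycolysis and hypoxia genes, 23 of 31 tested members were below 0, with a median of -0.20. CA9 was called lower and BNIP3, a mitochondrial protein of mitophagy, was called higher from below background (at least 2.66-fold, adjusted p = 0.0365). The BNIP3 call held in 11 of 19 alternatives and was lost with normexp and when any single TSA array was left out. Its lowest log2 fold change among the alternatives was 0.12. Of 57 replication genes, 48 were below 0 and the median was -0.18, with both siUHRF1 arrays under both siCONT arrays for 32 of them. PRIM1, the primase subunit that starts each DNA strand, was the 1 called, at 1.12 and 1.11 against 0.43 and 0.45 (log2 fold change -0.68, adjusted p = 0.0109). Of 40 recombination and Fanconi genes, 33 were below 0 (median -0.14) and none was called, with 7 at an unadjusted p below 0.05 and FANCM lowest in p (-0.39, adjusted p = 0.122). Of 58 mitosis genes, 32 were below 0 (median -0.05), and the kinetochore gene CENPK (-0.71, adjusted p = 0.0275) and the kinesin KIF14 (-0.62, adjusted p = 0.0445) were called lower. The calls of PRIM1, CENPK and KIF14 were lost under scaling on the spike-in probes and without either siCONT + TSA replicate.

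Interferon genes were mostly flat, with 5 of 39 tested members called higher, beside 3.42% of all genes tested. IFI27 read -3.78 on both siCONT + TSA arrays and -1.16 and -0.87 in siUHRF1 + TSA (log2 fold change 2.76, adjusted p = 0.000543). STING1, the adaptor of cytosolic DNA sensing, read -2.05 and -1.92 against -0.20 and 0.03 (1.91, adjusted p = 0.0455), and IRF9, a subunit of the interferon-activated transcription factor, had a log2 fold change of 0.85 (adjusted p = 0.0097) and was named after its value was seen. For these genes the groups did not overlap. The RNA sensor relative DHX58 (at least 1.86-fold, adjusted p = 0.00907) and IFIT3 (at least 2.37-fold, adjusted p = 0.0467) came from below background, and normexp background correction turned both, to -0.15 and -0.14. Across the list 22 members were above 0 and 17 below, with a median of 0.09. The call of STING1 held in 10 of 20 alternatives, and the number called higher ran from 2 to 6 as single arrays were left out and was 0 with normexp.

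Cytoskeletal, matrix and adhesion genes gave scattered rises, where 3.42% of all genes tested were called higher. Of 17 tested intermediate filament genes, 4 were called higher, namely KRT14 (at least 5.41-fold, adjusted p = 0.00399), a keratin of basal epithelium, KRT19 (at least 3.94-fold, adjusted p = 0.00574), the neurofilament gene NEFH (at least 2.41-fold, adjusted p = 0.000543) and the neuronal filament gene PRPH (log2 fold change 3.45, adjusted p = 0.0135), which was above background on 1 of the 2 siCONT + TSA arrays. The list's median was 0.66 and 15 members were above 0. KRT14, KRT19 and NEFH were below background in every other group, so they entered the test through their rise. The 12 members above background on all 4 TSA arrays had a median of 0.33, and none of them was called. Of 16 epithelial-mesenchymal genes, 4 were called higher. THY1, a surface glycoprotein of fibroblasts and stem cells, read -6.02 and -5.92 against -1.74 and -1.62, at least 5.78-fold higher (adjusted p = 2.23e-05), and the collagen COL5A1 read -3.31 and -3.77 against -1.22 and -1.40 (2.24, adjusted p = 0.0118). S100A4, a calcium-binding protein of motile cells, read -0.19 and -0.23 against 1.47 and 1.85 (1.87, adjusted p = 0.00501). TGFBI, a matrix protein induced by TGF-beta, read 0.17 and 0.25 against 2.92 with siUHRF1-1 and 1.71 with siUHRF1-2 (2.10, adjusted p = 0.0455). The 2 siRNAs thus differed most for TGFBI, whose call held in 9 of 20 alternatives, while that of S100A4 held in 20 of 20. TIMP2 was the 1 called of 10 tested genes of matrix proteases and their inhibitors. Of 21 protocadherins, PCDHA1 (at least 2.39-fold) and PCDHA6 (at least 1.23-fold) were called higher, and normexp background correction turned them to -0.062 and -0.22. It also ended the calls of COL5A1, KRT14 (log2 fold change 0.38), KRT19 (0.25), NEFH (0.07) and THY1 (0.43). The calls of PRPH and COL5A1 were lost without either siUHRF1 + TSA array, and that of COL5A1 also without siCONT + TSA replicate 2.

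Stress and signalling lists held a few rises each. Of all genes tested, 3.42% were called higher and 0.625% lower, so lists with 1 or 2 calls are a description. In the amino acid and unfolded protein response list, 4 of 41 were called higher. CBS, the enzyme that makes cystathionine, read -6.07 and -5.96 against -0.42 and -0.60, at least 13.0-fold higher (adjusted p = 0.00459), and NUPR1, a stress-induced chromatin protein, was at least 4.90-fold higher (adjusted p = 0.00644). The endoplasmic reticulum proteins PDIA4 (0.81, adjusted p = 0.0153) and CRELD2 (0.75, adjusted p = 0.00726) rose modestly, and the list's median was -0.05. Of 23 heat shock genes, HSPB3 (at least 2.45-fold, adjusted p = 0.00161) and HSPA1A (at least 1.98-fold, adjusted p = 0.00304) were called higher, and of 24 metallothionein and oxidative stress genes, MT1F (0.89, adjusted p = 0.00962) and MT1G (at least 2.12-fold, adjusted p = 9.26e-05), the latter turned to -0.055 by normexp. ID2, an inhibitor of helix-loop-helix factors, was the 1 called of 34 early growth response genes, at 0.43 and 0.46 against 1.81 and 2.18 (1.55, adjusted p = 0.00509). IL18 and IL24 (at least 2.77-fold, adjusted p = 0.00726, -0.11 with normexp) were the 2 called of 19 chemokines and cytokines. Of 15 neuronal genes, the tubulin TUBB3 (0.55, adjusted p = 0.0403) and BEX2 (at least 3.06-fold, adjusted p = 0.00229, -0.080 with normexp) were called higher, and of 27 histone genes the linker histone H1-10 (0.67, adjusted p = 0.0364). TAPBP, the tapasin chaperone of class I loading, was called lower among 21 antigen presentation genes (-0.46, adjusted p = 0.0441), and this call, like that of TUBB3, held in 8 of 20 alternatives, as did that of H1-10, while that of PDIA4 held in 12 of 20. Normexp background correction ended the calls of CBS, NUPR1, HSPB3 (log2 fold change 0.05) and HSPA1A (0.01).

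Several lists gave no call by limma. Among 22 genes of histone deacetylases and their corepressor complexes the lowest p belonged to HDAC11 (0.64, adjusted p = 0.0825) and 3 had an unadjusted p below 0.05. Among 32 heterochromatin and polycomb genes it belonged to the methyltransferase SETDB2 (-0.47, adjusted p = 0.125), with 8 below 0.05 unadjusted. Among 29 p53 targets it belonged to TP53I3 (0.45, adjusted p = 0.0675), with 5. Among 27 apoptosis regulators 6 had an unadjusted p below 0.05. Among 28 HOX genes HOXC13 had a log2 fold change of 0.76 (adjusted p = 0.0651), with 4 below 0.05 unadjusted, and among 9 globin and erythroid genes HBM had 0.86 (adjusted p = 0.0566), with 3. The medians of these lists lay between -0.03 and 0.25.

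**Figure D3:**
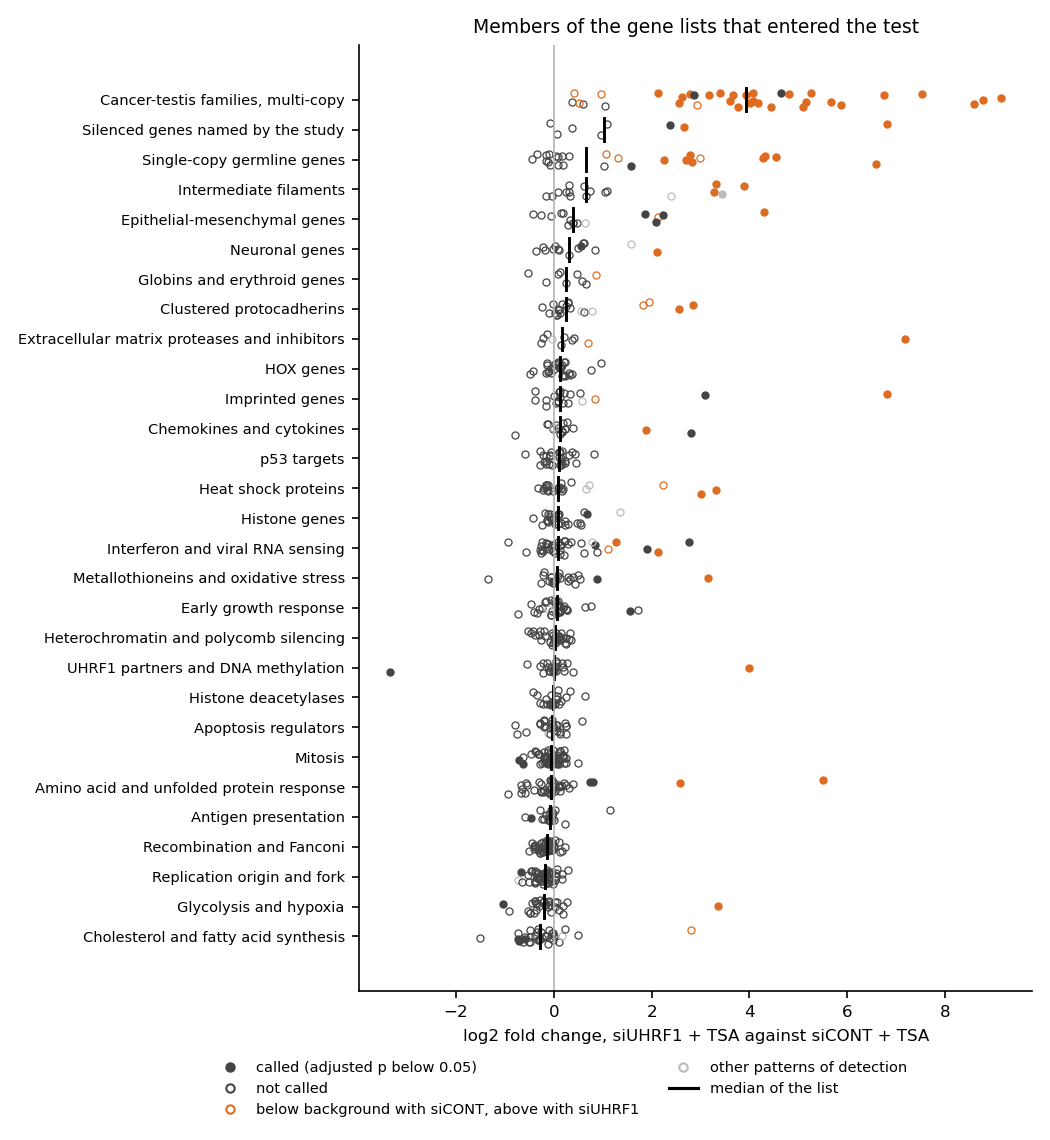
Log2 fold change of siUHRF1 + TSA against siCONT + TSA (horizontal axis) for each tested member of 29 gene lists (rows); filled points are called genes, orange points are genes below background with siCONT and above it with siUHRF1, pale points have other patterns of detection, and black ticks are list medians. The cancer-testis list has a median of 3.92, and at the bottom the cholesterol list has a median of -0.28.

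The same siRNAs without TSA gave fewer calls. There, 90 of the 13929 genes were called higher (0.646%) and 2 lower, and 87 of these 92 (94.6%) were also called with TSA, where they made up 15.4% of the 564 calls. None was called in opposite directions. Of the 217 measured rises, 210 had the same sign without TSA, 36 were called there, and the median was 0.63 beside 1.10 with TSA. Of the 83 measured falls, 82 had the same sign, 1 (UHRF1) was called, and the median was -0.32 beside -0.65. The genes were chosen by their calls with TSA, so a larger value there is in part given by the choice.

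The difference between the effects with and without TSA was tested directly. It was called for 56 genes (0.402%), of which 54 rose more under TSA, and the other two were LINC00968 and GLIPR1, the latter called higher without TSA (adjusted p = 0.00129) and with a log2 fold change of 0.05 with it. Of the 56, 45 were not above background on both arrays of either group without TSA. For 2 of the 56 all 8 arrays were above background. PCAT19 had a log2 fold change of 0.63 without TSA and 2.90 with it, and DHRS2, a short-chain dehydrogenase, 1.09 without and 2.55 with it. On the siRNA arrays without TSA, PCAT19 read -2.65 and -2.71 with siCONT and -2.28 and -1.82 with siUHRF1, all below its values under TSA. DHRS2 under TSA read -0.70 and -0.60 against 1.95 and 1.84, with no overlap. ADAD2 (0.82 without, 2.91 with TSA) and VCX2 (1.93 without, 4.64 with TSA) were not called for the difference. These calls depended on the processing: limma called 0 of 20754 probes when only those above background on all 8 arrays were tested (671 at an unadjusted p below 0.05), so PCAT19 and DHRS2 were not called there. Of 90 probes called for the difference, the count fell to 1 with a trended and robust prior and to 6 with normexp.

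Genes below background in siCONT + TSA split by what happened without TSA. Of the 235, 223 were also below background on both siCONT arrays. Of these, 58 were above background on both siUHRF1 arrays without TSA, 34 on 1 of them and 131 on neither. SOHLH1 and TIMP2 belong to the 58, and were at least 8.95-fold and at least 8.62-fold higher without TSA, both called. THY1, COL1A2 (a type I collagen chain, at least 3.76-fold higher with TSA) and RHOXF2 (a homeobox gene of the testis, at least 2.09-fold) belong to the 131, and all 3 were below background on all 4 arrays without TSA. NUPR1 and HCLS1 were above background in both groups without TSA and below it in siCONT + TSA. BEX2 was below background in both siCONT groups, at least 4.96-fold higher without TSA and at least 3.06-fold higher with it, and these bounds do not order the changes.

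**Figure D4:**
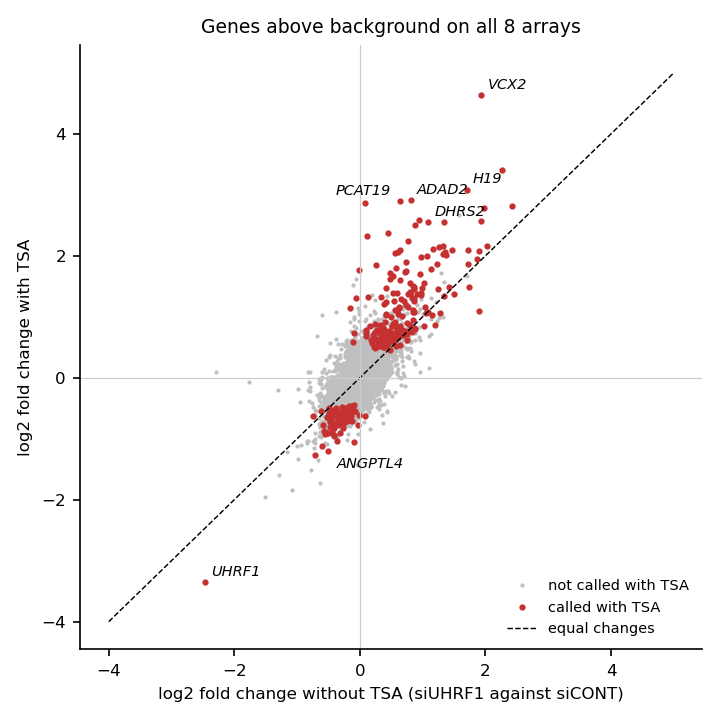
Log2 fold change of siUHRF1 against siCONT without TSA (horizontal axis) and with TSA (vertical axis) for the 12709 genes above background on all 8 arrays; red points were called with TSA and the dashed line marks equal changes. Of the 277 called genes, 271 have the same sign in both and 258 changed more with TSA, among them PCAT19 and DHRS2.

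The changes with each UHRF1 siRNA are given as a description. A wide gap between these 2 arrays makes a call less likely, and both changes are taken from the same siCONT + TSA mean. Likeness among called genes is therefore in part given by the choice. Genes with unequal changes could still be called, such as DKK1 (3.05 with siUHRF1-1 and 1.70 with siUHRF1-2). Over the 217 measured rises, the change was larger with siUHRF1-1 for 108 genes and with siUHRF1-2 for 109, with medians of 1.13 and 1.04. Over the 83 falls, it was larger with siUHRF1-1 for 47 and with siUHRF1-2 for 36, with medians of -0.66 and -0.63. Replicates of the control were closer to each other: the median absolute difference between arrays was 0.0756 in siCONT + TSA and 0.19 between the 2 siRNAs. Each siRNA was on 1 array with TSA, so its own effect has no replicate.

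The 5 genes with the widest gap between the siRNAs were picked for that gap, so their values are a description. OSTC, a subunit of the oligosaccharyltransferase complex, read 2.77 and 2.76 in siCONT + TSA and 2.70 with siUHRF1-1, but -1.10 with siUHRF1-2. Without TSA it read 2.93 with siUHRF1-1 and -0.30 with siUHRF1-2, so its level was low on both arrays of that siRNA. OSTCP1 and OSTCP2, near-identical copies of OSTC whose probes may share its signal, showed the same pattern. ZNF763, a zinc finger gene, read 2.21 and 2.16 in siCONT + TSA, 2.08 with siUHRF1-1 and -1.16 with siUHRF1-2. IGFL2, of the insulin-like growth factor family, went the other way, at -2.23 and -2.18 in siCONT + TSA, 1.49 with siUHRF1-1 and -1.71 with siUHRF1-2. None of these 5 genes was called, with standard errors from 0.93 to 1.42.

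**Figure D5:**
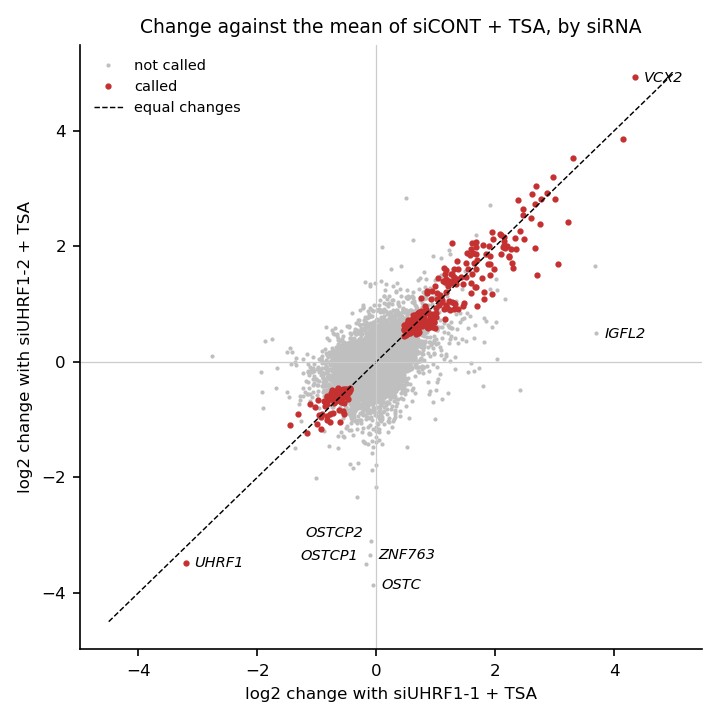
Log2 change against the mean of siCONT + TSA with siUHRF1-1 + TSA (horizontal axis) and with siUHRF1-2 + TSA (vertical axis) for the 12914 genes above background on all 4 TSA arrays; red points were called and the dashed line marks equal changes. A wide gap between the 2 changes makes a call less likely, which in part places called genes near the line. OSTC, OSTCP1, OSTCP2, ZNF763 and IGFL2 lie far from it.

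The label of a colorectal epithelial line was checked against markers. Of 14 colon epithelium markers, KRT8, KRT18, CDX1, CDX2 and MUC2 were above background on all 4 TSA arrays, while EPCAM, CDH1, VIL1, CDH17, LGALS4, LGR5 and GUCY2C were below it on all 4. Their summed linear level, in units of the array's 75th percentile, was 57.2 and 55.8 in siCONT + TSA and 94.7 and 77.4 in siUHRF1 + TSA. KRT18 made up most of that sum, at a log2 level of 5.60 and 5.57 against 6.38 and 6.11 (log2 fold change 0.66, adjusted p = 0.0538), and was not called. CDX1 (-0.20), CDX2 (-0.09) and MUC2 (-0.31) had log2 fold changes below 0 and were not called either. KRT19 was the 1 epithelial marker called higher, from below background (at least 3.94-fold, adjusted p = 0.00574). KRT20 was above background on 1 siUHRF1 + TSA array. Of 9 leukocyte markers, CD68 was above background on all 4 arrays, CSF1R was called higher, and CD3E, CD2, MS4A1 and ITGAM were among those below background on all 4 (summed level 3.22 and 3.33 against 5.96 and 2.36). Of 8 fibroblast markers, COL1A1 and LUM were above background on all 4 arrays, DCN was above it on both siUHRF1 + TSA arrays, COL1A2 and PDGFRB were called higher, and COL3A1, PDGFRA and FAP were below background on all 4 (0.617 and 0.591 against 0.962 and 1.19). Of 6 endothelial markers, VWF and CDH5 were above background on all 4 arrays, VWF was called higher (log2 fold change 2.11, adjusted p = 0.000867), and PECAM1, KDR, TEK and EMCN were below background on all 4 (0.309 and 0.259 against 0.718 and 0.585). The part of these markers in the results was not tested.

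All 8 siRNA arrays were on 1 slide read in 1 scan. The siCONT arrays filled columns 1 and 2 and the siUHRF1 arrays columns 3 and 4, so slide column and siRNA cannot be told apart. Arrays without TSA filled row 1 and arrays with TSA row 2, so slide row and TSA cannot be told apart either.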

How the data were processed

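RNA was hybridized in 1 colour to Agilent SurePrint G3 Human GE v2 arrays. The authors' deposited files hold linear spot intensities from Feature Extraction 10.7.3.1, background-subtracted and detrended, with a surrogate value for dim spots and no scaling between arrays. The methods name t-tests and ANOVA but give no normalization. Each array held 62976 spots (50599 probes, 4259 control spots), with 46.8% to 49.6% of probes well above background and no saturated spot. The number of arrays limits precision.

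Control and outlier spots were left out, spots of a probe averaged, and log2 intensities set relative to the array's 75th percentile. Probes had to be well above background on each array of 1 or more of the 4 groups, and were tested with limma 3.58.1 (R 4.3.3, lmFit and eBayes) over the 8 siRNA arrays in 4 groups, with 4 residual degrees of freedom. Of the tested probes, 13 lacked a value on a TSA array and were fitted without it. The procedure was tested on simulated data. Symbols came from RefSeq by accession (28174 probes) or synonym (3238); 19187 probes had none. A gene was represented by its brightest probe.

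Members, gene lists, markers and alternatives were chosen with earlier results of these data known. Named genes were UHRF1 and called DNA methylation genes; the 12 largest measured rises and falls; the 12 highest bounds and up to 6 falls to background; up to 4 called genes per list, or else that of lowest p; genes the study names as silenced, with ACTB and GAPDH; the 5 of lowest p for the difference with and without TSA, over all genes and over genes above background on all 8 arrays; and the 5 that differed most between siRNAs. Alternatives covered background correction, scaling, filters, outlier spots, the deposited value table, the replicate block, arrays left out, the prior, the threshold, the methods' t-test and Tukey's test. A slide or scan block could not be fitted. Results for a few genes that the rule names are not reported here.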

Additional observations from a re-analysis of the deposited data

Results flagged for a closer look

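In limma's interaction test, 90 probes responded unequally to the UHRF1 siRNAs in the presence and absence of TSA. A log2 fold change with TSA minus that without was called for several genes named in the report. It was 5.31 for SPANXB1, 4.42 for THY1, 3.995 for COL1A2, 3.66 for MAGEA9, 3.44 for NEFH, 3.38 for RHOXF2, 3.34 for HSPB3, 3.32 for MT1G, 3.28 for PAGE1, 3.14 for HSPA1A, 2.27 for PCAT19, 2.05 for IFI27 and 1.46 for DHRS2. For LINC00968 it was -3.70, and for GLIPR1, which the naming rule did not pick, it was -2.60. PCAT19 and DHRS2 were above background on all 8 arrays, whereas the others were below it in at least 1 group, where the value depends on how dim spots are filled in, so their differences are not measured on both sides. When only probes above background on all 8 arrays were tested, 0 of 20754 were called by limma, with 671 at an unadjusted p below 0.05. Groups of 2 arrays are too small to single out a stray array.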

How the results depend on the processing

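The direction of UHRF1 held throughout, from -3.49 to -3.21 as arrays were left out, but the methods' t-test with Benjamini-Hochberg adjustment gave it an adjusted p of 0.159 (log2 fold change -3.35). Counts below are given in the order siUHRF1 + TSA against siCONT + TSA (839 probes), siUHRF1 against siCONT (132), the difference of these effects (90) and genes that went from below to above background (235). An unadjusted p below 0.05 gave 4128, 2113, 1166 and 377, and adding a change over 2-fold gave 430 for the second and 512 for the third. Normexp background correction gave 92, 9, 6 and 16. The stricter filter gave 313, 10 and 0 and no value for the last. Fitting the 4 arrays compared gave 38 for the second, and a trended and robust prior 1 for the third. The methods' t-test at p below 0.05 gave 3634 and 1847, and after adjustment 0, 0 and 0 genes for the last. Tukey's test gave 2198 and 1045 unadjusted, and 78, 0 and 32 genes adjusted. Leaving out 1 array gave 453 to 1115, 90 to 249, 91 to 207 and 160 to 244. The second count was 249 without siCONT replicate 2. The third was 140 without siCONT replicate 1, 207 without siCONT replicate 2, 192 without siUHRF1 replicate 2 and 182 without siUHRF1 + TSA replicate 2. With the replicate block they were 746, 136, 71 and 242. In the siUHRF1 groups, replicate 1 stands for siUHRF1-1 and replicate 2 for siUHRF1-2, which are different siRNAs. The numbers do not pair the siCONT and siUHRF1 arrays (correlation of deviations 0.0024). A random block for the siRNA, chosen after seeing the data, gave 827, 134, 127 and 229. Among the called genes that the naming rule picks, only normexp turned a sign, for BEX2 (-0.080), DHX58 (-0.15), IFIT3 (-0.14), IL24 (-0.11), MT1G (-0.055), PCDHA1 (-0.062), PCDHA6 (-0.22) and RUNX3 (-0.16), all below background in siCONT + TSA. The cause was not tested. Signal over background limits these genes.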
